A study of Mus musculus with 47 samples.

Results

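Olfactory epithelium of Kir2.1 mice was compared between 3 days after birth (P3) and the day of birth (P0), across all genes. The comparison holds 7 of the 47 libraries in the series, 3 Kir P3 libraries and 4 Kir P0 libraries, taken by the genotype and age in their titles. The series followed dissected mouse olfactory epithelium through 7 ages, P0 to P21, in the Kir2.1 mice and in wild-type mice, by sequencing of polyadenylated RNA. The Kir2.1 libraries (Kir below) carry the strain label OIVT;Kir2.1 and the wild-type libraries (WT) the strain label C57BL/6J. The 3 WT P3 and 4 WT P0 libraries are set beside the Kir values below. The labels name neither the meaning of OIVT nor the promoter and cells in which the channel is expressed, nor do they tie libraries to single animals. The p-values below therefore weigh a difference between groups against how far libraries of the same group differ. Unless said otherwise that spread was estimated over all 47 libraries, and part of it may be technical. WT P0 replicate 3 carries a P3 stage label, and was placed at P0 by its title and by the number of animals per age that the study design gives.

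The olfactory epithelium renews its sensory neurons throughout life. Dividing globose basal cells give rise to immature neurons, which mature into neurons that express Omp and usually a single odorant receptor gene each. Horizontal basal cells are a reserve of stem cells, sustentacular cells support the neurons and carry enzymes that metabolise foreign chemicals, and Bowman's glands secrete the mucus. Kir2.1, the product of Kcnj2, is an inward-rectifier potassium channel that draws the membrane potential towards rest, and its forced expression is a common means of making neurons less excitable. The week after birth is a time in which neurons of this tissue mature and their axons refine their targets in the olfactory bulb.

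Levels are given as CPM, read counts scaled to the size of each library, a unit that is not divided by gene length, so levels are compared within a gene and not between genes. Kcnj2 (ENSMUSG00000041695, chr11:111066164-111076821 on GRCm38) had 959, 644 and 132 CPM in the Kir P3 libraries, against 525, 639, 571 and 439 CPM in the Kir P0 libraries. The WT P3 libraries had 45.0, 45.3 and 48.8 CPM and the WT P0 libraries 59.5, 50.6, 53.3 and 50.1 CPM. Each Kir library thus lay above all 7 WT libraries, and Kir P3 replicate 3 was the lowest of the Kir libraries. The change of Kcnj2 between ages was not called in Kir (log2 fold change 0.09 ± 0.45 (SE), edgeR adjusted p = 0.923).

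Gene counts per library were 9871392 to 14888005 in Kir P3 and 10788110 to 13945732 in Kir P0. Besides Kir P3 replicate 3, Kir P0 replicate 4 stood apart. It alone among the 7 Kir libraries held high levels of skeletal muscle and keratin genes, and it had the fewest odorant receptor transcripts. All 3 Kir P3 libraries and 2 of the 4 Kir P0 libraries (replicates 2 and 4) were female by their Xist and Ddx3y counts. Of the markers of vomeronasal neurons, Trpc2 had 0 counts in all 14 libraries, and Vmn2r1 had 0.308 to 9.24 CPM in Kir P3 and 0.731 to 7.27 CPM in Kir P0, against 0.211 to 0.768 CPM in WT P3 and 0.174 to 0.571 CPM in WT P0. The mean log2 CPM of 10 vomeronasal neuron genes was 3.86 to 5.42 in Kir P3 and 3.91 to 5.06 in Kir P0, and its part in the results below was not tested. Omp, Cyp2g1 and Krt5, markers of mature neurons, sustentacular cells and horizontal basal cells, were present in every library. In whole tissue, fewer cells of a type and less RNA per cell cannot be told apart, and this holds for each result below.

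Over 19927 genes tested with edgeR, 3545 genes (17.8%) were called at an adjusted p below 0.05 in Kir P3 against Kir P0. Of these, 1565 (7.85%) were higher and 1980 (9.94%) lower at P3. A change of 2-fold or more was found for 383 of the higher genes (1.92% of all tested) and 705 of the lower genes (3.54%). Without Kir P3 replicate 3, 2421 genes were called (11.9%), 1244 higher (6.11%) and 1177 lower (5.79%). Without Kir P0 replicate 4, 2001 genes were called (10%), 891 higher (4.47%) and 1110 lower (5.57%). With the 7 Kir libraries alone, 814 of 17345 genes were called (4.69%), 364 higher (2.1%) and 450 lower (2.59%). Against the 2 female Kir P0 libraries alone, 3657 genes were called (17.9%), 1852 higher (9.08%) and 1805 lower (8.85%). An unadjusted p below 0.05 was found for 6167 genes (30.9%), and 3946 genes (19.8%) had no overlap between the Kir P3 and Kir P0 libraries.

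The 12 largest rises had log2 fold changes of 2.03 to 4.11. They and the 12 largest falls were taken among called genes whose Kir P3 and Kir P0 libraries do not overlap. Srd5a2, a steroid reductase, had 12.2, 18.8 and 9.57 CPM in the Kir P3 libraries, against 1.005, 0.930, 0.951 and 0.177 CPM in the Kir P0 libraries (log2 fold change 4.11 ± 0.33, edgeR adjusted p = 8.6e-11). Chil6, a chitinase-like protein, had 155, 261 and 176 CPM at P3, against 19.6, 19.1, 19.3 and 9.57 CPM at P0. Gldn, a matricellular protein known for assembling nodes of Ranvier, had 52.8, 57.8 and 55.8 CPM at P3, against 7.58, 10.04, 9.29 and 5.32 CPM at P0 (2.78 ± 0.19, edgeR adjusted p = 5.21e-12). The other members of the 12 largest rises were the carboxylesterase Ces1a (2.61), the pyrimidine-degrading enzyme Dpys (2.61), the microvillus protein Anks4b (2.56), the cytochrome P450 Cyp1a2 (2.55), the glutathione peroxidase Gpx6 (2.24), the secreted proteins Bpifb6 (2.17) and Vmo1 (2.12), the interferon-linked helicase Ddx60 (2.05) and the organic anion transporter Slc22a20 (2.03), all as log2 fold changes. In WT, 11 of these 12 genes were also called higher at P3, and Ddx60 was not (0.05 ± 0.61, edgeR adjusted p = 0.968). The difference between Kir and WT in the change of Ddx60 was itself not called (edgeR adjusted p = 0.835).

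Among the 12 largest falls were 5 genes of cartilage: Matn1 (log2 fold change -7.22), Ucma (-6.48), Col2a1 (-5.13), Matn3 (-4.98) and Acan (-4.61). The other 7 were the muscle genes Tnnt3 (-8.16) and Des (-5.85), the keratin Krt1 (-5.80), the epidermal transglutaminase Tgm3 (-5.51), the protease inhibitor Slpi (-5.88), the arginase Arg1 (-5.29) and 2610528A11Rik (-6.72). The values of these 7 rest in large part on Kir P0 replicate 4. Tnnt3, for example, had 0, 0.103 and 0.268 CPM at P3, against 0.457, 0.837, 0.439 and 163 CPM at P0. Without that library Tnnt3, Des, Krt1 and Tgm3 were not called (edgeR adjusted p = 0.388, 0.245, 0.88 and 0.279), while Slpi, Arg1 and 2610528A11Rik were, at smaller log2 fold changes of -1.45, -2.03 and -3.73. The cartilage genes were called with and without it.

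**Figure D1:**
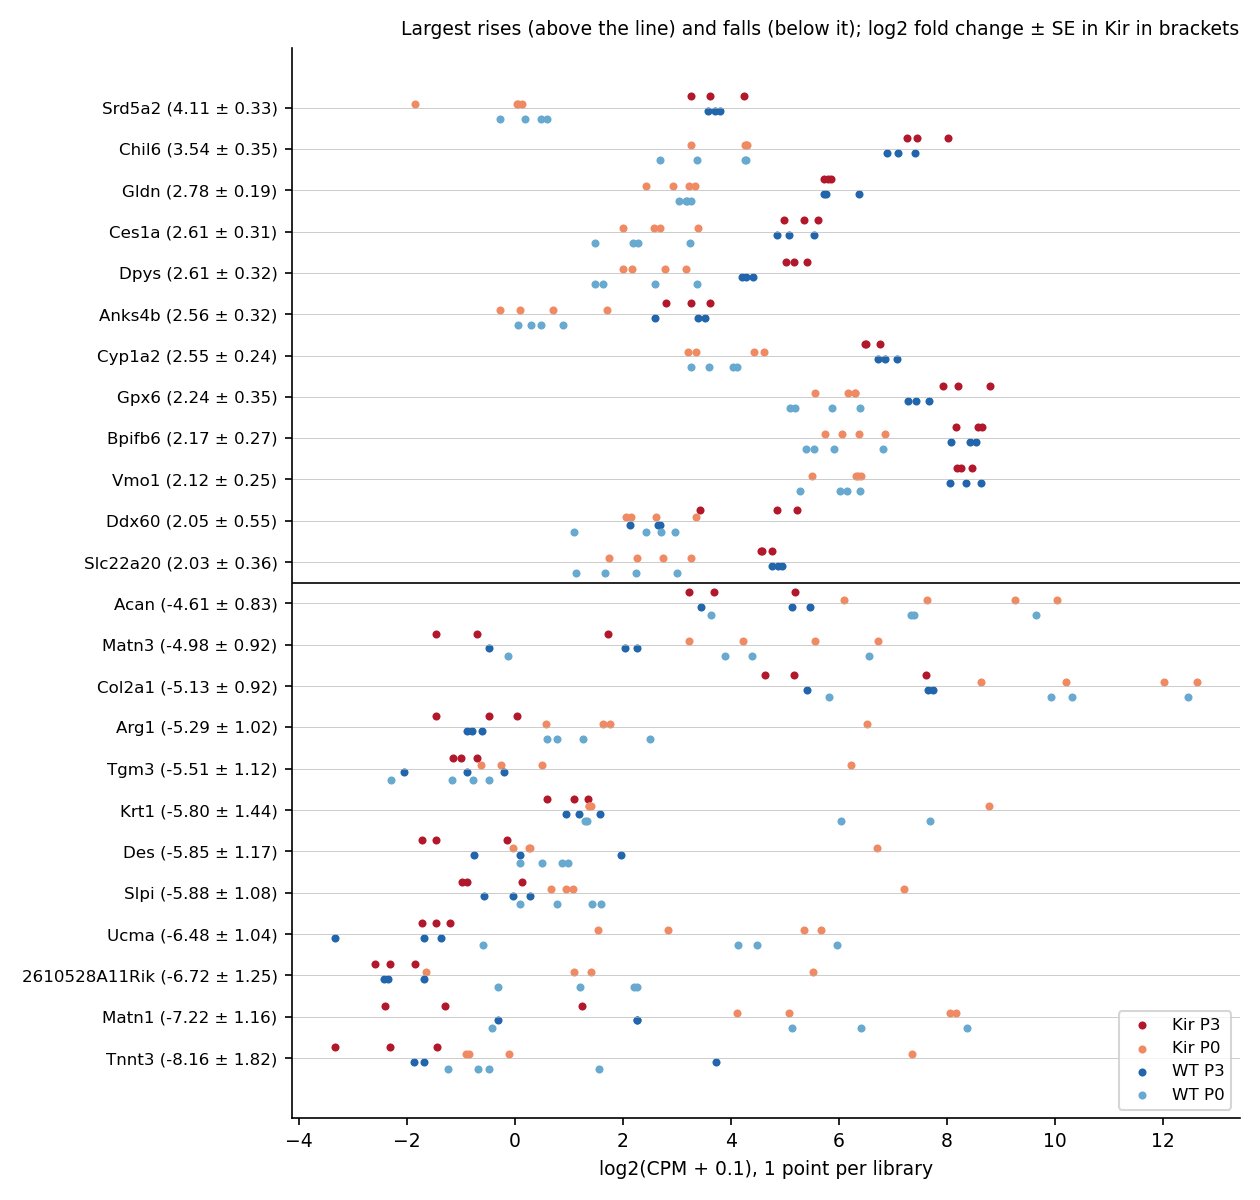
Levels of the 12 largest rises and 12 largest falls in each library, as log2(CPM + 0.1), 1 point per library, with Kir P3 (red), Kir P0 (orange), WT P3 (dark blue) and WT P0 (light blue) one above another in each row. The genes were chosen among those whose Kir groups do not overlap, and Tnnt3, Des, Krt1, Tgm3, Slpi, Arg1 and 2610528A11Rik are highest in Kir P0 replicate 4.

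Genes of dividing cells rose together. Of 38 cell cycle genes tested, 34 rose in Kir P3, with a median log2 fold change of 0.72 over the list, against a median of -0.02 over all genes tested. Top2a, the topoisomerase that untangles chromosomes in dividing cells (chr11:98992943-99024189), had 413, 555 and 403 CPM in the Kir P3 libraries, against 278, 231, 178 and 192 CPM in the Kir P0 libraries (1.06 ± 0.15, edgeR adjusted p = 7.1e-06). Mcm3 and Mcm5, subunits of the helicase that opens replication origins, averaged 77.1 ± 6.10 and 97.3 ± 7.61 CPM at P3 (SD, n = 3), against 36.4 ± 9.98 and 46.7 ± 10.1 CPM at P0 (SD, n = 4). Rrm1, a subunit of ribonucleotide reductase, averaged 186 ± 33.7 CPM at P3 and 110.0 ± 19.7 CPM at P0 (0.76 ± 0.11, edgeR adjusted p = 1.43e-05). The mean log2 CPM of the list was 5.94, 6.15 and 5.96 in the P3 libraries, against 5.55, 5.20, 5.19 and 5.18 in the P0 libraries. The groups did not overlap, and Kir P0 replicate 1 was the highest of the P0 libraries. The count of members called was 32 without Kir P3 replicate 3, 31 without Kir P0 replicate 4 and 21 with the 7 Kir libraries alone.

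The promoter sequences of Mcm3 and Mcm5 are shown because both genes were among the cell cycle genes with the smallest adjusted p and both hold letters of the kind bound by E2F factors, which switch on genes of DNA replication. They are RefSeq windows on GRCm38.p6, from 250 bases before to 50 bases after the start, given 5′ to 3′ on the gene's strand, chr1:20820263-20820562 (minus strand) for Mcm3 and chr8:75109259-75109558 (plus strand) for Mcm5. Capitals mark TTTCCCGC or TTTGGCGC on either strand. 
Mcm3: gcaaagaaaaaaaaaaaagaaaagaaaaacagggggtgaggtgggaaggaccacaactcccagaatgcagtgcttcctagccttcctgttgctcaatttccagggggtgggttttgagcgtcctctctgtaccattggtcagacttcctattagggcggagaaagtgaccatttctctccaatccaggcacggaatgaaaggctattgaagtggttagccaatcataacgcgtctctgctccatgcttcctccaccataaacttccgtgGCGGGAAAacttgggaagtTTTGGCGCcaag
Mcm5: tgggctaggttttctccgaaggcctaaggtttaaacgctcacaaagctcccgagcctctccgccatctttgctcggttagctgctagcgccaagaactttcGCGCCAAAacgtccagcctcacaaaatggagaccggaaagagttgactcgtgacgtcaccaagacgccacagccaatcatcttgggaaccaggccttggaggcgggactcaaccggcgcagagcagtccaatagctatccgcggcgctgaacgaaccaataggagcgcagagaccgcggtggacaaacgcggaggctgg
These letters were found in 8 of the 29 called cell cycle genes with a promoter in the table (27.6%) and in 486 of all 27025 genes there (1.80%). They were found in 8 of the 32 genes of the whole cell cycle list with a promoter (25%) and in 2.79% of the genes tested. The share among the called members was thus near that of the whole list. The search was chosen after the counts of cell cycle genes were known, and a match describes the sequence and not the use of a site.

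Precursor genes moved in the same direction. Of 17 globose basal and neuronal precursor genes tested, 9 rose, with a median of 0.47. Mybl1, a transcription factor of dividing precursors, had 79.7, 83.1 and 59.7 CPM at P3, against 30.7, 39.3, 29.0 and 23.3 CPM at P0 (1.28 ± 0.19, edgeR adjusted p = 1.55e-05), and the groups did not overlap. Besides the replication genes Top2a and Mcm2 and the chromatin modifier Ezh2 (0.59 ± 0.12, edgeR adjusted p = 0.00117), the proneural factor Neurod1 (0.65, edgeR adjusted p = 0.0115) rose. Neurog1 (0.19) and Kit (0.01) were not called. The count was 6 without Kir P3 replicate 3, 5 without Kir P0 replicate 4 and 4 with the 7 Kir libraries alone. Top2a and Mcm2 also stand in the cell cycle list, so the lists are not independent.

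Horizontal basal cell genes lay lower, largely through a single library. Of 13 tested, 6 fell, among them the adhesion molecule Icam1 (-1.23 ± 0.34), the desmosomal protein Perp (-1.20 ± 0.34) and the keratins Krt17 (-1.29 ± 0.42) and Krt14 (-1.50 ± 0.49). Krt14 had 31.1, 53.0 and 47.5 CPM at P3, against 47.1, 46.3, 44.5 and 358 CPM at P0. The first 3 P0 libraries overlap the P3 libraries and Kir P0 replicate 4 lies far above them. Without that library 1 of 13 was called, Sox9, and the list median was -0.29, against -0.74 with all 7 libraries, and without Kir P3 replicate 3 the count was 3.

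**Figure D2:**
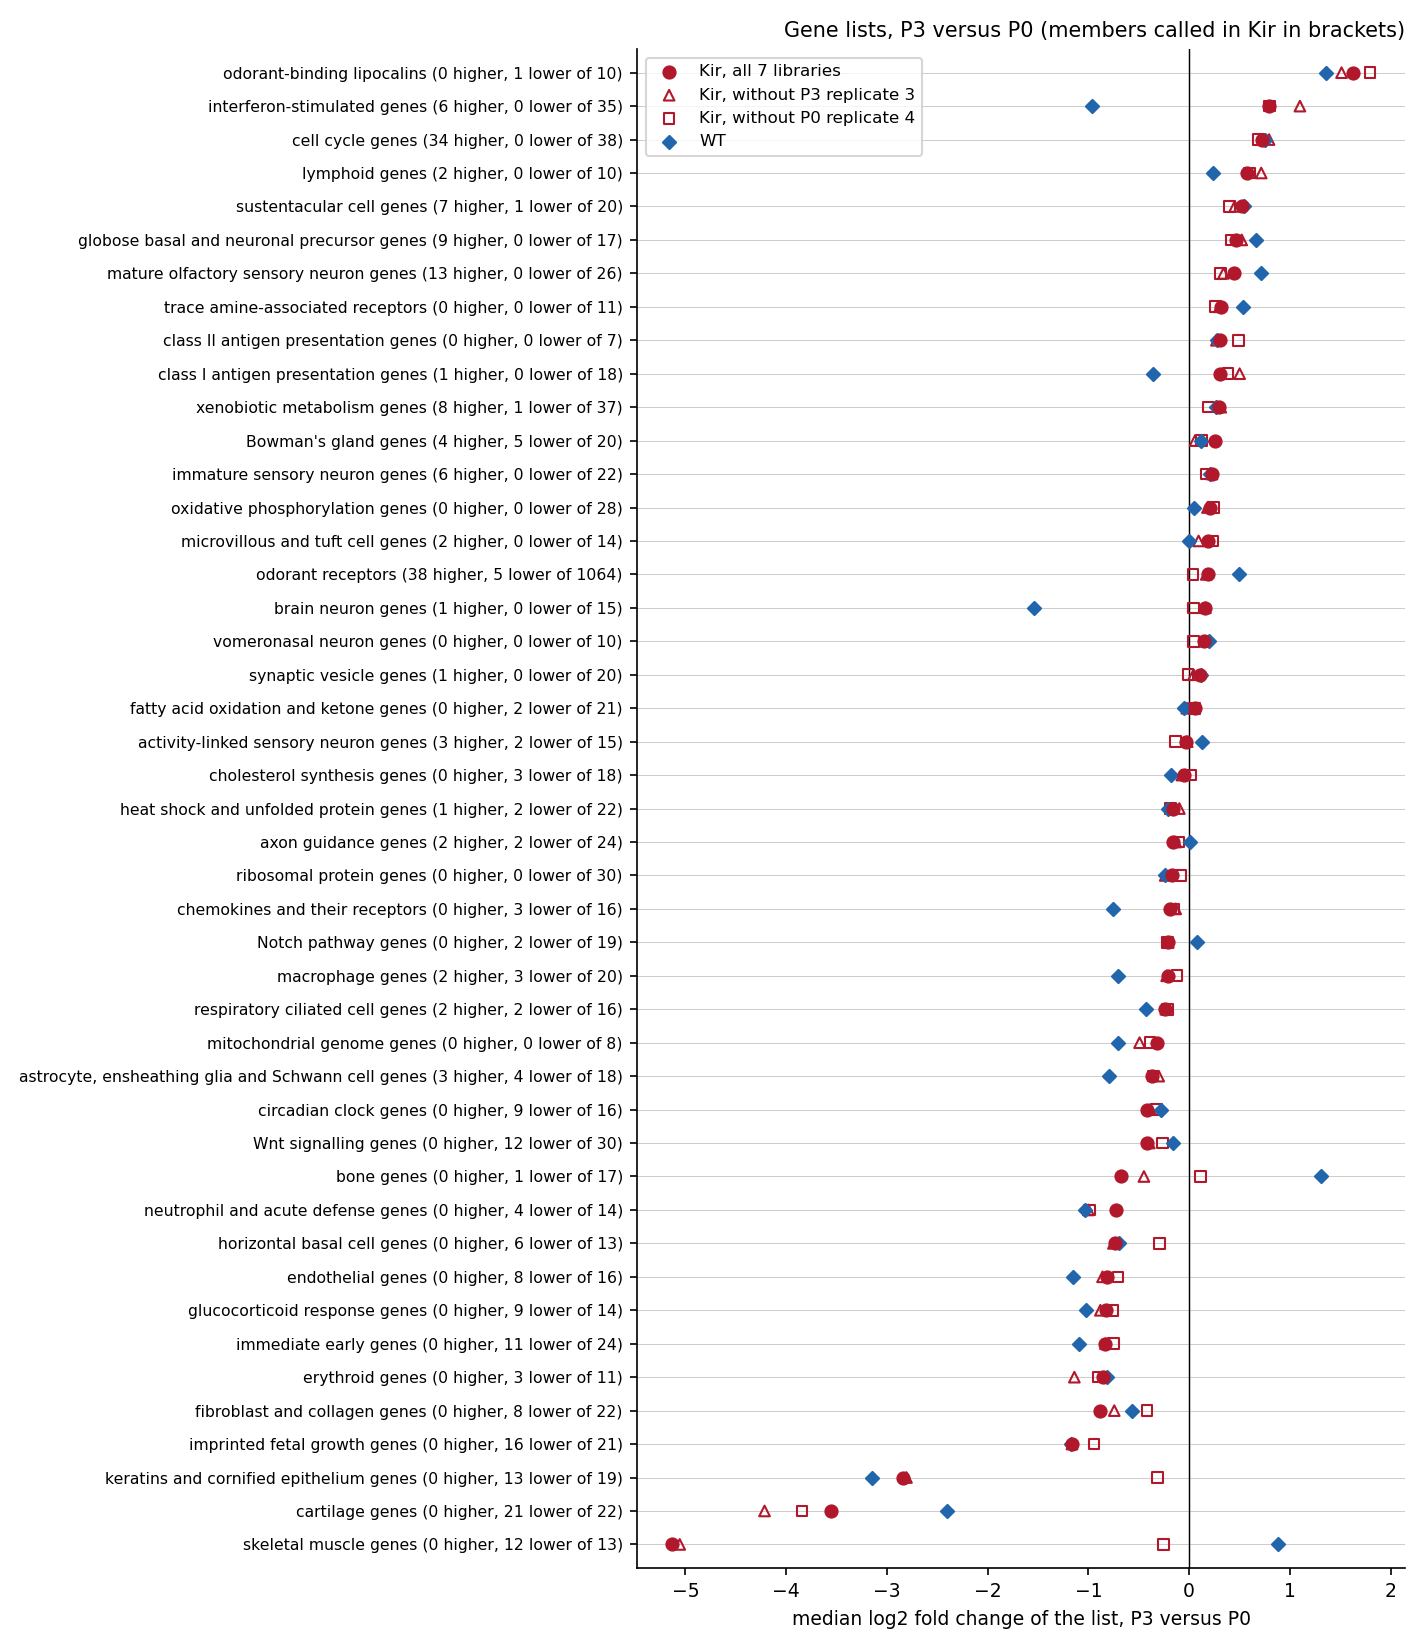
Median log2 fold change over the members tested of 45 gene lists, P3 against P0, in Kir with all 7 libraries (filled circles), without Kir P3 replicate 3 (triangles), without Kir P0 replicate 4 (squares) and in WT (diamonds). Counts of members called higher and lower in Kir stand in brackets; cell cycle genes lie to the right and cartilage genes far to the left in every series, while muscle and keratin genes return close to 0 without Kir P0 replicate 4.

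Mature sensory neuron genes rose in part. Of 26 tested, 13 rose, with a median of 0.45, beside the 7.85% of all genes that rose. Of the 26, 5 had a log2 fold change below 0. The mean log2 CPM of the list was 6.62 to 7.27 in Kir P3 and 6.03 to 6.86 in Kir P0. These ranges overlap. Omp, the marker of mature sensory neurons (chr7:98143359-98145502), had 449.8, 340.5 and 600.2 CPM in the Kir P3 libraries, against 206, 281, 258 and 164 CPM in the Kir P0 libraries (1.03 ± 0.18, edgeR adjusted p = 0.000123). The groups of Omp did not overlap, and Kir P3 replicate 3, the Kir library with the least Kcnj2, held the most Omp among the Kir libraries. In WT, Omp had 799, 772 and 790.2 CPM at P3, against 319, 402, 299.8 and 398 CPM at P0 (1.15 ± 0.18). The calcium-binding protein S100a5 had 71.1, 53.8 and 148 CPM in Kir P3, against 20.6, 37.1, 33.0 and 16.9 CPM in Kir P0 (1.76 ± 0.26, edgeR adjusted p = 2.08e-05), again highest in Kir P3 replicate 3. Without that library S100a5 changed by 1.24 and Omp by 0.83 on the log2 scale, and both were still called.

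Further mature genes that rose were the extracellular protein Umodl1 (1.08 ± 0.19, edgeR adjusted p = 0.00017), the receptor transporter Rtp2 (0.98 ± 0.18, edgeR adjusted p = 0.000218) and the cyclic nucleotide-gated channel subunit Cnga2 (0.59 ± 0.14, edgeR adjusted p = 0.00371). Cnga2 averaged 232 ± 23.9 CPM at P3 and 154 ± 44.2 CPM at P0. The adenylyl cyclase Adcy3 (157 ± 46.4 CPM at P3 and 116 ± 27.9 CPM at P0) and the G protein subunit Gng13 (28.9 ± 12.6 and 18.2 ± 6.85 CPM) were not called (edgeR adjusted p = 0.113 and 0.16). The count of mature genes called was 7 without Kir P3 replicate 3, 8 without Kir P0 replicate 4 and 5 with the 7 Kir libraries alone. The mean log2 CPM of the 22 immature sensory neuron genes tested was 6.73 to 7.01 in Kir P3 and 6.42 to 6.99 in Kir P0. These ranges overlap. Of the 22, 6 rose, beside the 7.85% of all genes that rose. Among the 6 were the deacetylase Hdac9 (0.97 ± 0.17), the RNA-binding protein Elavl4 (0.75 ± 0.16), the microtubule regulator Stmn4 (1.01 ± 0.25) and the G protein subunit Gng8 (0.49 ± 0.14). The count of immature genes called was 3 without Kir P3 replicate 3, 3 without Kir P0 replicate 4 and 1 with the 7 Kir libraries alone. Gng8 was not called with Kir P3 replicate 3 or Kir P0 replicate 4 left out (edgeR adjusted p = 0.0937 and 0.0814). Gap43, a protein of growing axons, had 260.4, 269 and 244 CPM at P3, against 168, 257, 169 and 137 CPM at P0 and was not called (0.50 ± 0.22, edgeR adjusted p = 0.113).

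Odorant receptors, each the receptor of a subset of neurons, were seldom called in Kir. Of 1064 receptor genes tested, 38 rose and 5 fell (Olfr920, Olfr95, Olfr63, Olfr13 and Olfr281, the last 4 named after their values were seen), beside the 7.85% of all genes that rose and the 9.94% that fell. The counts were 22 and 3 without Kir P3 replicate 3, 10 and 6 without Kir P0 replicate 4, and 7 and 1 with the 7 Kir libraries alone, which left 624 receptors tested. The summed level of all receptor genes was 1761, 1446 and 1756 CPM in the Kir P3 libraries, against 1435, 1792, 1599 and 958 CPM in the Kir P0 libraries, so the groups overlap. Between 509 and 596 receptors reached 1 CPM in a Kir P3 library, against 289 to 575 in a Kir P0 library. The median log2 fold change over the receptors tested was 0.19 with all 7 libraries and 0.04 without Kir P0 replicate 4, which held the least receptor RNA. In WT the summed level was 3012, 2423 and 3081 CPM at P3, against 1724, 2352, 1602 and 2266 CPM at P0, with no overlap, and 168 receptors rose with a median of 0.50. At an unadjusted p below 0.05, 86 of the 1064 receptors differed between Kir and WT in their change, beside 5.71% of all genes tested. Of the 86, 81 had the smaller rise or larger fall in Kir. Over all genes the adjusted test called the difference for 0 receptors with edgeR and 0 with DESeq2.

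The receptors with the smallest adjusted p were Olfr586, Olfr920, Olfr171 and Olfr741. Olfr586 had 2.13, 1.64 and 2.08 CPM in Kir P3, against 0.457, 0.372, 0.512 and 0.443 CPM in Kir P0 (2.11 ± 0.41, edgeR adjusted p = 0.000539). Olfr920 fell, with 0.711, 0.205 and 0.736 CPM at P3, against 2.101, 2.51, 2.56 and 3.19 CPM at P0 (-2.17 ± 0.43, edgeR adjusted p = 0.000552). Neither receptor's groups overlapped. Class I receptors, the fish-like receptors clustered on chromosome 7 (Olfr543 to Olfr692), had a median of 0.41 with 6 of 110 called higher, and the other receptors a median of 0.17 with 32 of 954 called higher. Reads that map to several places were not counted to genes, so the level of a receptor with a near-identical copy is uncertain. Of 11 trace amine-associated receptors tested, 0 were called with edgeR and 0 with DESeq2, and 1, Taar7a, had an unadjusted p below 0.05.

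A list of 15 sensory neuron genes whose levels are known to depend on neuronal activity moved both ways. Hist2h2be, a histone variant gene known for being lower in active neurons, had 327, 343 and 417 CPM in Kir P3, against 195, 182, 178 and 114 CPM in Kir P0 (1.11 ± 0.14, edgeR adjusted p = 1.93e-06). S100a5, above, and Nphs1, which encodes the adhesion protein nephrin (1.84 ± 0.39, edgeR adjusted p = 0.00107), also rose. Pcdh10, an adhesion protein of the same neurons, had 36.0, 24.04 and 45.7 CPM in Kir P3, against 54.9, 215, 149.7 and 101 CPM in Kir P0 (-1.88 ± 0.36, edgeR adjusted p = 0.000402), and Cdkn1c fell as well (-1.21 ± 0.22). In every Kir P3 library Pcdh10 lay below every Kir P0 library. The adhesion gene Kirrel2, named after its values were seen, had 87.7, 58.9 and 171 CPM in Kir P3, against 55.1, 174, 137 and 68.0 CPM in Kir P0, and was not called (-0.03 ± 0.33, edgeR adjusted p = 0.964). In WT, Hist2h2be (0.78), S100a5 (1.69), Nphs1 (2.37), Pcdh10 (-1.36) and Cdkn1c (-1.17) were called in the same directions. The difference between the genotypes was called for 0 of the 15 with edgeR and 0 with DESeq2, and 1 had an unadjusted p below 0.05.

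Sustentacular cell genes rose in part at P3. Of 20 tested, 7 rose and Reg3g fell, with a median of 0.52. Cyp1a2, a cytochrome P450 that oxidises foreign aromatic compounds (chr9:57676937-57683703), had 90.7, 108 and 89.4 CPM in Kir P3, against 10.1, 21.6, 24.5 and 9.13 CPM in Kir P0 (2.55 ± 0.24, edgeR adjusted p = 3.32e-09). Sec14l3, a lipid-binding protein, had 916, 1237 and 1121 CPM at P3, against 377, 268, 259 and 296 CPM at P0 (1.86 ± 0.18, edgeR adjusted p = 8.51e-09). The groups of Sec14l3 did not overlap. Cyp2g1, a cytochrome P450 of the olfactory mucosa, averaged 1506 ± 268 CPM at P3 and 735 ± 278 CPM at P0 (1.04 ± 0.23, edgeR adjusted p = 0.00215), and the carbonyl reductase Cbr2 averaged 1861 ± 416 CPM at P3 and 1145 ± 127 CPM at P0. Reg3g, an antimicrobial lectin, averaged 659 ± 251 CPM at P3 and 1415 ± 290.1 CPM at P0 (-1.10 ± 0.33, edgeR adjusted p = 0.0183). Counts of the list that rose were 4 without Kir P3 replicate 3, 5 without Kir P0 replicate 4 and 2 with the 7 Kir libraries alone.

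Of 37 xenobiotic metabolism genes tested, 8 rose and 1 fell, beside the 7.85% and 9.94% of all genes. The counts were 6 and 1 without Kir P3 replicate 3, 5 and 0 without Kir P0 replicate 4 and 3 and 0 with the 7 Kir libraries alone. Ces1a, a carboxylesterase with near-identical copies beside it, had 41.1, 49.1 and 31.7 CPM at P3, against 10.4, 5.86, 6.36 and 3.90 CPM at P0 (2.61 ± 0.31, edgeR adjusted p = 4.81e-07). The glutathione transferase Gsta3 averaged 79.5 ± 16.7 CPM at P3 and 45.3 ± 6.86 CPM at P0 (0.81 ± 0.18, edgeR adjusted p = 0.00157). The gene that fell, named after its values were seen, was Cyp26b1, which degrades retinoic acid (-0.68, edgeR adjusted p = 0.0171). The list shares Cyp1a2 and Cyp2g1 with the sustentacular list.

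Bowman's gland genes divided. Of 20 tested, 4 rose, all of them secreted proteins of olfactory mucus, and 5 fell. Over all genes, 7.85% rose and 9.94% fell. Without Kir P3 replicate 3 the counts were 4 and 5, and without Kir P0 replicate 4 they were 3 and 5. With the 7 Kir libraries alone they were 3 and 4, and in WT 4 and 7. The mean log2 CPM of the list was 7.27 to 7.77 in Kir P3 and 7.15 to 7.73 in Kir P0. These ranges overlap. Scgb1c1, a secretoglobin, had 342, 454 and 363 CPM in Kir P3, against 102, 128, 129 and 78.6 CPM in Kir P0 (1.82 ± 0.17, edgeR adjusted p = 6.93e-09). Bpifb6 had 383, 404 and 289.8 CPM at P3, against 116, 66.7, 83.1 and 53.4 CPM at P0. The gel-forming mucin Muc5b went the other way, with 209, 116 and 294 CPM at P3, against 559.8, 627, 919.5 and 686 CPM at P0 (-1.76 ± 0.34, edgeR adjusted p = 0.000533). The glycosyltransferase Galnt4 (-0.52 ± 0.10), the lysozymes Lyz1 and Lyz2 and Gp2 also fell. Lyz2 is also a macrophage gene and a near-identical copy of Lyz1. Lcn2, an iron-binding defense protein, was the single called member of 10 odorant-binding lipocalin genes tested, at 19.6, 25.4 and 20.5 CPM in Kir P3, against 52.4, 104, 134 and 80.4 CPM in Kir P0 (-2.09 ± 0.56, edgeR adjusted p = 0.00843). Of 14 microvillous and tuft cell genes tested, the lipoxygenase Alox5 (1.27 ± 0.26) and Pou2f3, the factor that specifies these cells (1.01 ± 0.23), rose.

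**Figure D3:**
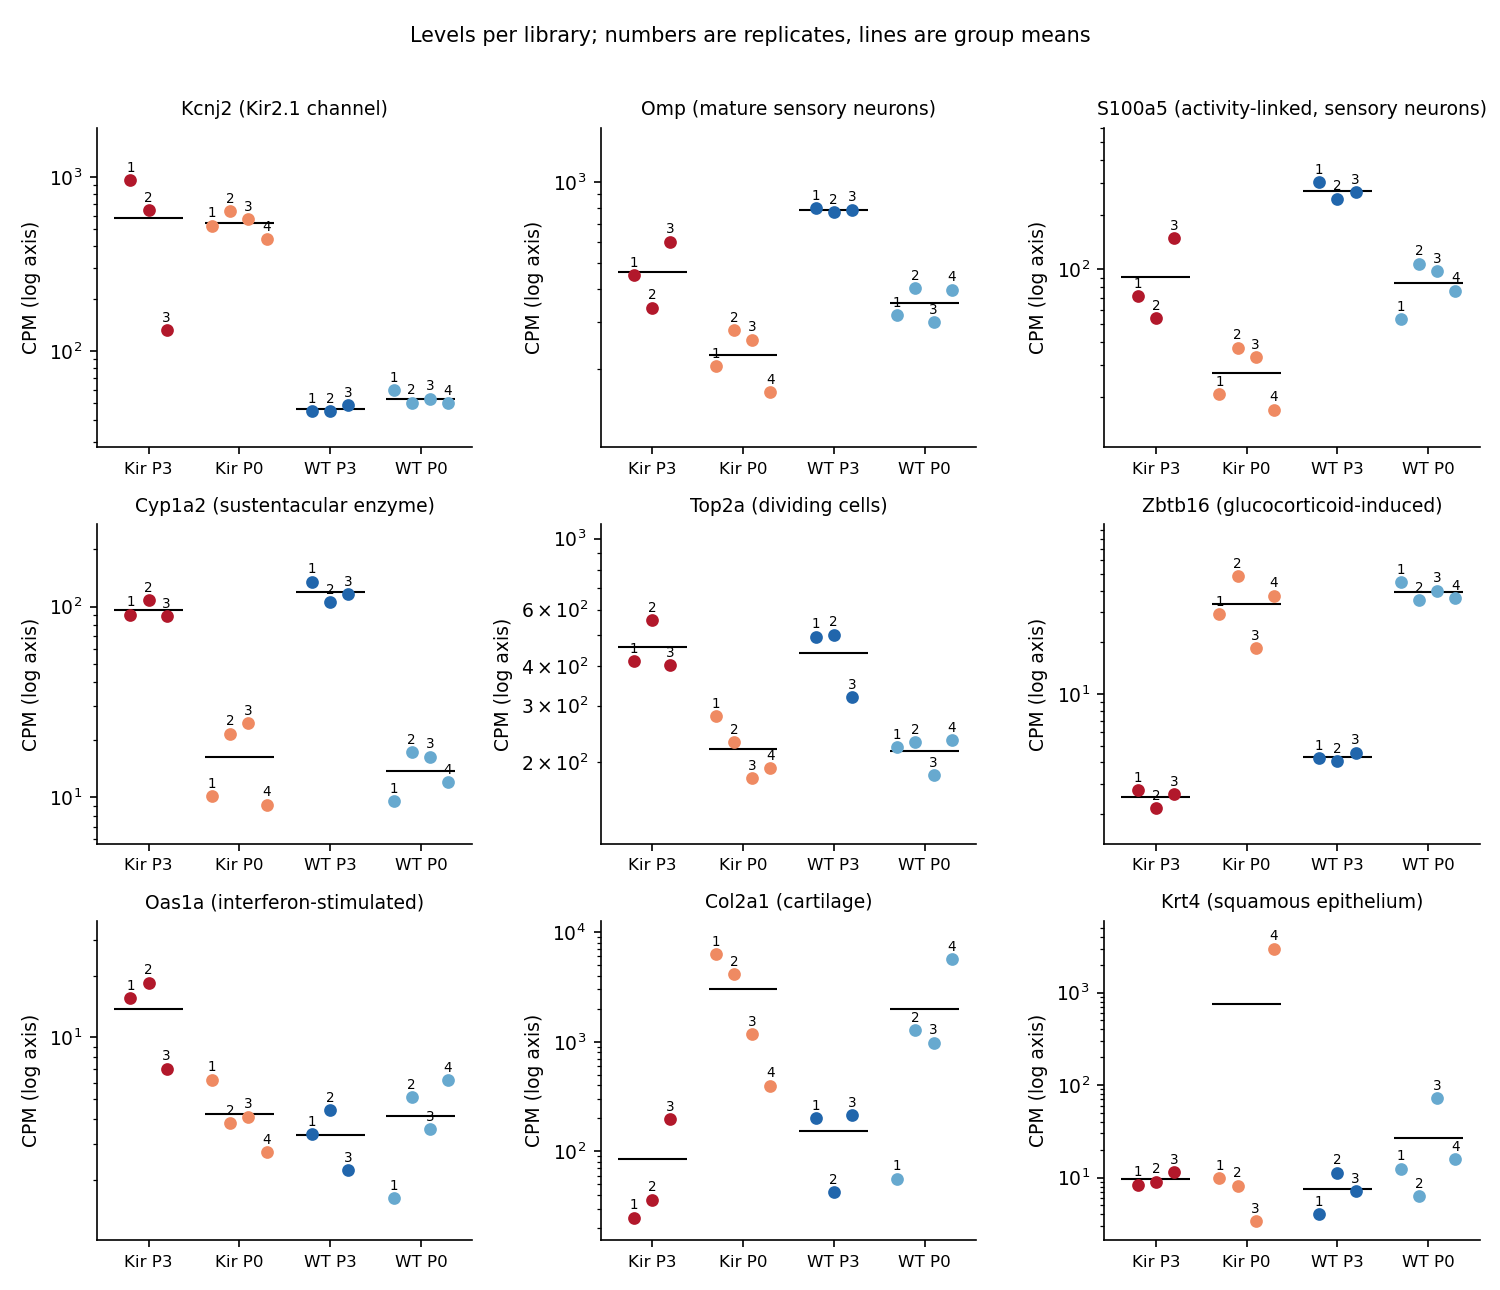
Levels of 9 genes in each library, in CPM on a log axis, for Kir P3, Kir P0, WT P3 and WT P0; numbers are replicates and lines are group means. Omp, S100a5, Cyp1a2 and Top2a lie higher at P3 in both genotypes, Zbtb16 and Col2a1 mostly lower, Oas1a is higher at P3 in Kir, Kcnj2 is high in all Kir libraries, and Krt4 is high in Kir P0 replicate 4.

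Target genes of glucocorticoid hormones fell. Of 14 tested, 9 fell, with a median of -0.83, and the count was 9 with either library that stood apart left out and 8 with the 7 Kir libraries alone. Zbtb16, a transcription factor induced by glucocorticoids (chr9:48654297-48836222), had 2.75, 2.16 and 2.61 CPM in Kir P3, against 29.1, 48.6, 18.5 and 37.3 CPM in Kir P0 (-3.72 ± 0.30, edgeR adjusted p = 8.6e-11). Tsc22d3, which encodes the glucocorticoid-induced leucine zipper protein, had 28.8, 44.6 and 37.4 CPM at P3, against 150.3, 133, 99.1 and 201 CPM at P0 (-1.98 ± 0.22, edgeR adjusted p = 1.55e-07). Fkbp5, a co-chaperone of the glucocorticoid receptor, averaged 49.7 ± 4.51 CPM at P3 and 125 ± 35.5 CPM at P0 (-1.33 ± 0.18, edgeR adjusted p = 4.58e-06). The groups of these 3 genes did not overlap. The mean log2 CPM of the list was 4.83, 4.89 and 4.96 in Kir P3, against 5.75, 6.11, 5.80 and 6.21 in Kir P0. In WT, 11 of 14 fell, with a median of -1.02.

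Of 16 circadian clock genes tested, 9 fell, with a median of -0.42. Per1, a repressor of the clock that is also a glucocorticoid target, had 34.4, 26.6 and 34.6 CPM in Kir P3, against 90.7, 128, 103 and 173 CPM in Kir P0 (-1.95 ± 0.17, edgeR adjusted p = 1.47e-09). Nr1d1 (-1.24 ± 0.22, edgeR adjusted p = 0.000182) and Per2 (-0.71 ± 0.14, edgeR adjusted p = 0.000511) fell as well, and Bhlhe40 fell to 26.3 ± 1.61 CPM at P3 (SD, n = 3), against 52.7 ± 10.4 CPM at P0 (SD, n = 4). All 3 encode repressors within the clock. The labels give no hour of collection, so the time of day cannot be told apart from age. The count was 7 without Kir P3 replicate 3, 6 without Kir P0 replicate 4 and 3 with the 7 Kir libraries alone.

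Immediate early genes, which cells switch on within minutes of a stimulus, also lay lower at P3. Of 24 tested, 11 fell, with a median of -0.84. Fosl2, a Fos-family transcription factor, had 23.6, 26.1 and 25.6 CPM in Kir P3, against 66.1, 79.4, 51.3 and 111 CPM in Kir P0 (-1.62 ± 0.21, edgeR adjusted p = 1.93e-06). Fosb had 0.711, 0.616 and 0.603 CPM at P3, against 3.38, 3.72, 2.41 and 3.72 CPM at P0 (-2.35 ± 0.51, edgeR adjusted p = 0.00147). The Kruppel-like factors Klf2 (-1.62 ± 0.26) and Klf4 (-1.76 ± 0.35) fell as well. The count was 9 with either library that stood apart left out. The mean log2 CPM of the list was 3.29, 2.98 and 3.28 in Kir P3, against 3.64, 4.14, 3.97 and 4.26 in Kir P0, with no overlap. In WT, 13 of the 24 fell.

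Imprinted genes of fetal growth fell together. Of 21 tested, 16 fell, with a median of -1.17. Dlk1, a Notch-like membrane protein of fetal tissues (chr12:109452823-109463336), had 6.31, 6.58 and 8.502 CPM in Kir P3, against 60.1, 44.2, 27.0 and 330.3 CPM in Kir P0 (-4.01 ± 0.68, edgeR adjusted p = 9.89e-05). Peg10 had 5.33, 4.42 and 4.49 CPM at P3, against 17.7, 11.7, 10.5 and 25.3 CPM at P0 (-1.78 ± 0.27, edgeR adjusted p = 2.72e-05). Both were highest in Kir P0 replicate 4, and the groups did not overlap. The growth factor Igf2 and the noncoding RNA H19, of the same domain and named after their values were seen, had log2 fold changes of -1.76 ± 0.33 and -1.33 ± 0.33 (edgeR adjusted p = 0.000318 and 0.00417). The zinc finger factor Plagl1 (-1.23 ± 0.21) and the cell cycle inhibitor Cdkn1c (-1.21 ± 0.22) were also among the 4 with the smallest adjusted p. Without Kir P0 replicate 4, 11 members fell with a median of -0.94, and Dlk1 fell by 2.61 on the log2 scale. With the 7 Kir libraries alone 7 fell, and in WT 14 fell.

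**Figure D4:**
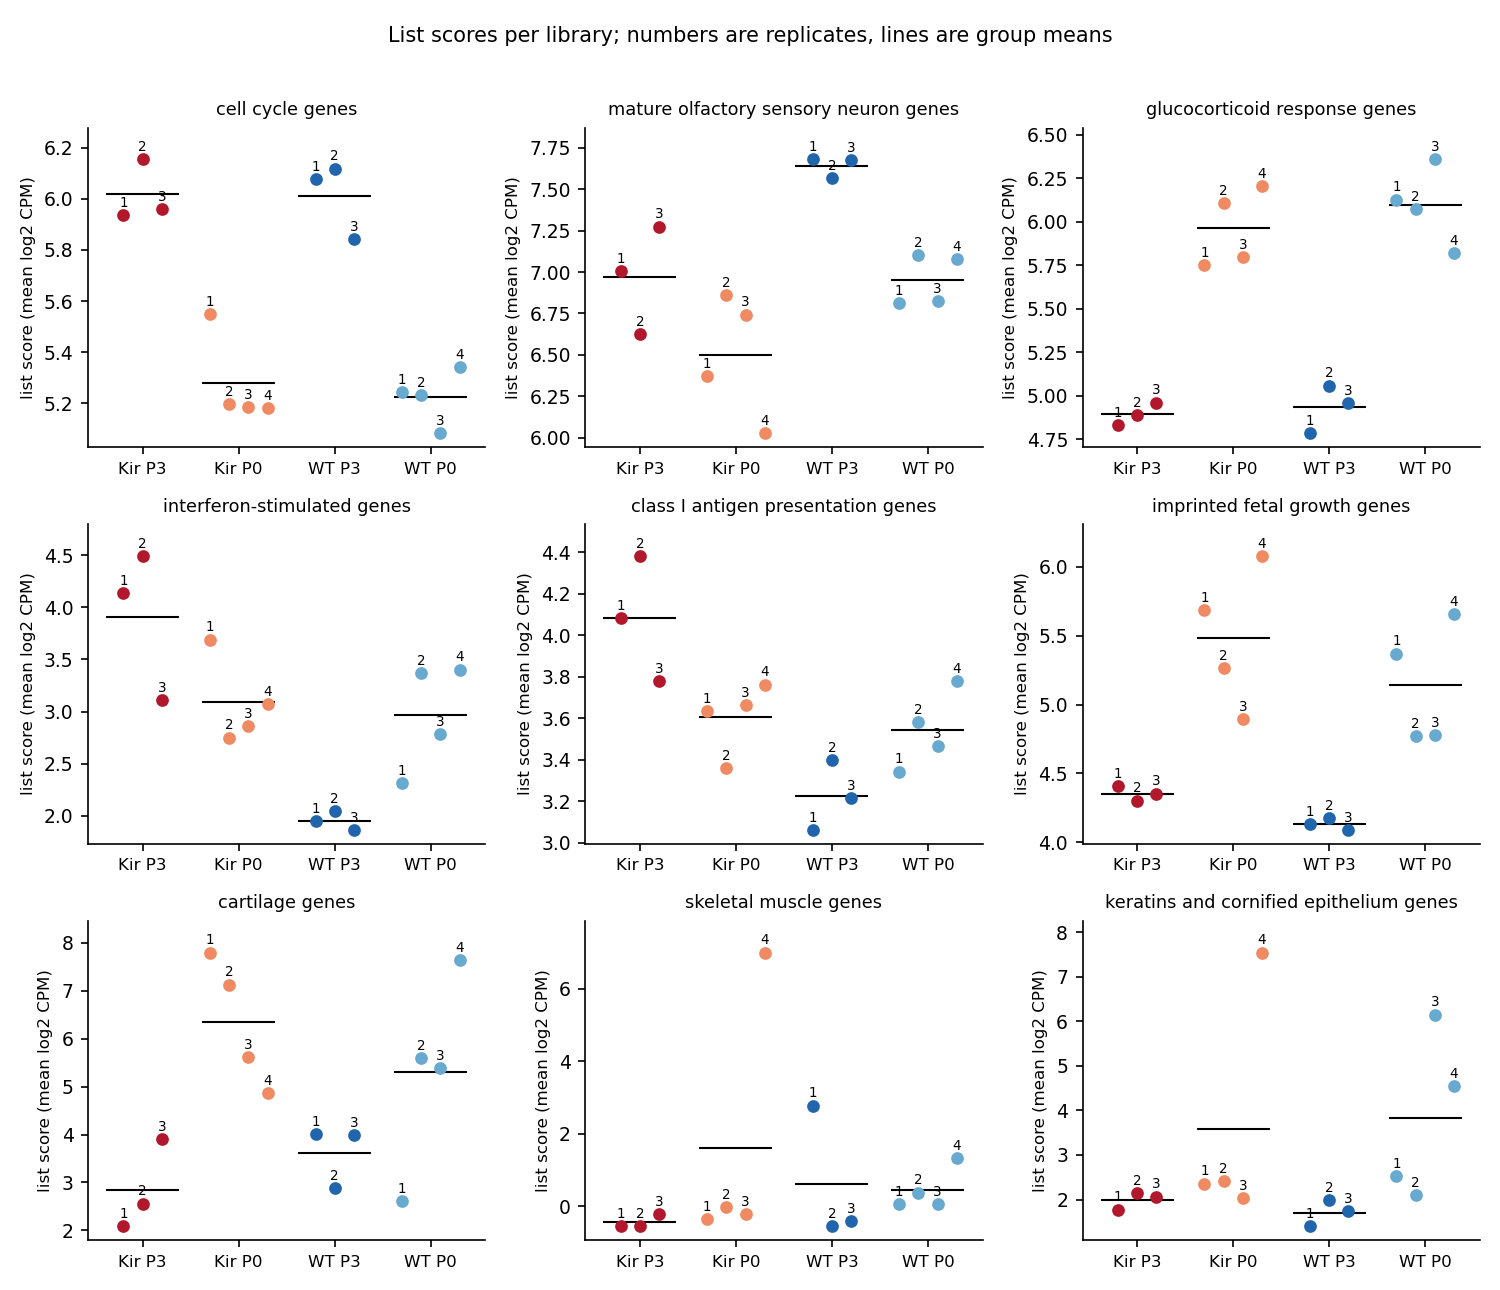
Mean log2 CPM of 9 gene lists in each of the 14 libraries, with Kir P3 left of Kir P0 and WT P3 left of WT P0. Glucocorticoid response and cell cycle genes separate P3 from P0 in both genotypes, interferon-stimulated genes are higher at P3 than at P0 in most Kir libraries and lower in WT, and muscle genes reach 6.99 in Kir P0 replicate 4 and stay below 0 in the other Kir libraries.

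Interferon-stimulated genes mostly lay higher at P3 than at P0 in Kir and lower in WT. These are antiviral genes that cells switch on in response to interferons. Of 35 tested, 6 rose in Kir P3 and 34 had a log2 fold change above 0, with a median of 0.79. Oas1a, a sensor of double-stranded RNA (chr5:120896256-120907521), had 15.5, 18.5 and 7.03 CPM in Kir P3, against 6.21, 3.81, 4.10 and 2.75 CPM in Kir P0 (1.68 ± 0.47, edgeR adjusted p = 0.0104). Its near-identical neighbour Oas1g had 6.75, 7.09 and 2.14 CPM at P3, against 2.47, 1.12, 1.32 and 1.24 CPM at P0 (1.78 ± 0.51, edgeR adjusted p = 0.0131). Kir P3 replicate 3 was the lowest P3 library in both genes and lay below Kir P0 replicate 1 in Oas1g. Ifi27l2a had 25.7, 49.6 and 24.9 CPM at P3, against 14.5, 3.90, 8.41 and 8.86 CPM at P0 (1.90 ± 0.51, edgeR adjusted p = 0.00877), and Ifit2, which blocks translation of viral RNA, had 14.2, 19.3 and 11.2 CPM, against 11.2, 7.06, 5.63 and 10.4 CPM (0.79 ± 0.25, edgeR adjusted p = 0.0227). The other 2 called members, named after their values were seen, were the RNA sensor Ifih1 (0.88 ± 0.31) and Oasl2 (1.37 ± 0.49).

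The mean log2 CPM of the 35 genes was 4.13, 4.49 and 3.11 in Kir P3, against 3.69, 2.75, 2.86 and 3.07 in Kir P0, and 1.95, 2.05 and 1.87 in WT P3, against 2.32, 3.37, 2.78 and 3.40 in WT P0. Kir P3 replicate 3 lay within the range of the Kir P0 libraries, and all 3 Kir P3 libraries lay above the WT P3 libraries. The count of members that rose was 7 without Kir P3 replicate 3, with a median of 1.10, then 4 without Kir P0 replicate 4 and 5 with the 7 Kir libraries alone. In WT, 5 members fell, with a median of -0.96. The change differed between Kir and WT at an unadjusted p below 0.05 for 31 of the 35 genes, all with the more positive change in Kir, against 5.71% of all genes tested. Genes of a list are not independent of each other, so a shift in a single library can move many of them. For skeletal muscle genes, which were high in Kir P0 replicate 4, the same count was 12 of 13. After adjustment over all genes, edgeR called the difference for 0 of the 35 and DESeq2 for 1, Xaf1. Xaf1 had 10.1, 11.9 and 5.42 CPM in Kir P3, against 8.04, 2.79, 3.44 and 6.73 CPM in Kir P0, and 1.34, 1.41 and 1.26 CPM in WT P3, against 4.98, 6.08, 4.28 and 7.39 CPM in WT P0 (difference 2.88 ± 0.66, edgeR adjusted p = 0.178). It was named after its values were seen.

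The promoters of the 3 called interferon-stimulated genes that hold the core letters of the interferon-stimulated response element are shown, as the letters they share can be seen in place. They are RefSeq windows on GRCm38.p6 of the same extent as above, on the minus strand, chr5:120907476-120907775 for Oas1a, chr5:120887564-120887863 for Oas1g and chr2:62646206-62646505 for Ifih1. Capitals mark GAAA and GAAA with any 2 bases between them, searched on both strands. 
Oas1a: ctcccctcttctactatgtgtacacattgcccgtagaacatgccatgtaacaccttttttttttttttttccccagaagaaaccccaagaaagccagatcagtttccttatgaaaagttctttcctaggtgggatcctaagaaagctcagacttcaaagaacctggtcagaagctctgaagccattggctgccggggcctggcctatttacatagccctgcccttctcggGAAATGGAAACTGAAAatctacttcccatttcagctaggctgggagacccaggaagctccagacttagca
Oas1g: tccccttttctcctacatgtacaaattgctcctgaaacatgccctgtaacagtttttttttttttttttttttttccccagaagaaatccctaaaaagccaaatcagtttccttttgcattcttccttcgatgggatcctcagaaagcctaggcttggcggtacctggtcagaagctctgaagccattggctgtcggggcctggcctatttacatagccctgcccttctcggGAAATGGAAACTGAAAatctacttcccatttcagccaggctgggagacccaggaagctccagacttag
Ifih1: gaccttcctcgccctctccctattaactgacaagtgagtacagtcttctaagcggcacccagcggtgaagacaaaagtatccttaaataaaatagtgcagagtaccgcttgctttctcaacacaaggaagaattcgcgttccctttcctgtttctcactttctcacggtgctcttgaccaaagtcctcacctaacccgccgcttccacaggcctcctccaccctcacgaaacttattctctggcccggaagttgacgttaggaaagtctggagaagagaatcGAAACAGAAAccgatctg
In Oas1a and Oas1g a pair of overlapping matches lies just before the start, and in Ifih1 a single match lies 32 bases after it. The letters were found in 16 of the 23 interferon-stimulated genes with a promoter in the table (69.6%), in 3 of the 5 called ones and in 3.99% of all 27025 genes. The share was not higher among the called members than in the list.

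Class I antigen presentation genes, many of which interferons also induce, had a median of 0.31, with 16 of 18 members above 0. Of the 18, H2-Q7 rose, with 1.07, 2.26 and 1.004 CPM in Kir P3, against 0.0913, 0.651, 0.512 and 0.443 CPM in Kir P0 (1.70 ± 0.60, edgeR adjusted p = 0.044). It is a member of a family of near-identical genes, and its call was lost without Kir P0 replicate 4. H2-T24, the next by p, had 8.53, 6.99 and 4.35 CPM at P3, against 6.30, 3.35, 2.78 and 1.68 CPM at P0 (0.91 ± 0.34, edgeR adjusted p = 0.0586). The light chain B2m, named after its values were seen, had 141, 203 and 136 CPM in Kir P3, against 131, 75.5, 98.4 and 100.2 CPM in Kir P0 (0.66 ± 0.30, edgeR adjusted p = 0.131). Of 7 class II genes tested, 0 were called with edgeR and 0 with DESeq2, and 0 had an unadjusted p below 0.05.

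Of 20 macrophage genes tested, 2 rose and 3 fell in Kir P3, beside the 7.85% of all genes that rose and the 9.94% that fell. Cd163, the haemoglobin scavenger receptor of resident macrophages, had 0.977, 2.16 and 0.736 CPM at P3, against 5.66, 5.30, 5.56 and 6.91 CPM at P0 (-2.21 ± 0.48, edgeR adjusted p = 0.00134), and the Fc receptor gene Fcgr3 fell as well (-1.20 ± 0.26). The chemokine receptor Cx3cr1 rose, with 12.6 ± 2.39 CPM at P3 (SD, n = 3), against 6.67 ± 1.67 CPM at P0 (SD, n = 4) (0.91 ± 0.23, edgeR adjusted p = 0.0048). The groups of these 3 genes did not overlap. The other called members were Aif1, which rose (0.84 ± 0.29), and Lyz2, above. Without Kir P3 replicate 3, and likewise without Kir P0 replicate 4, 1 member rose and 3 fell. The summed level of the 20 genes was 445 to 610.3 CPM in Kir P3, against 541 to 895 CPM in Kir P0. In WT, 10 of the 20 fell. The cathepsin gene Ctss, named after its values were seen, averaged 24.5 ± 5.11 CPM in Kir P3 and 28.3 ± 0.820 CPM in Kir P0, and 10.7 ± 1.18 CPM in WT P3 and 28.4 ± 3.88 CPM in WT P0 (SD, n = 3 and 4). Its difference in change, 1.20 ± 0.24, was not called by edgeR (adjusted p = 0.178) and was called by DESeq2. Of 10 lymphoid and 16 chemokine genes tested, the antibody chains Igkc (1.30 ± 0.34) and Ighm (1.38 ± 0.45) rose, and the chemokines Cx3cl1 (-0.46 ± 0.12), Ccl20 (-1.71 ± 0.54) and Cxcl17 (-0.79 ± 0.26) fell. Ccl20 and Cxcl17 were not called without Kir P0 replicate 4 (edgeR adjusted p = 0.0766 and 0.0557).

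Cartilage genes had the lowest median of the lists whose calls did not rest on a single library. Of 22 tested, 21 fell, with a median of -3.56, and 21 fell without Kir P3 replicate 3, 21 without Kir P0 replicate 4 and 14 with the 7 Kir libraries alone. Col2a1, the main collagen of cartilage (chr15:97975602-98004695), had 24.8, 36.2 and 197 CPM in Kir P3, against 6332, 4158, 1177 and 398 CPM in Kir P0 (-5.13 ± 0.92, edgeR adjusted p = 0.000202). Matn1, a cartilage matrix protein, had 0.0888, 0.308 and 2.28 CPM at P3, against 289.6, 266, 33.9 and 17.2 CPM at P0, and Col9a2 averaged 47.6 ± 7.11 CPM at P3 and 429 ± 315 CPM at P0. The summed level of the list ran from 310.5 to 763 CPM in Kir P3 and from 1426 to 14916 CPM in Kir P0, a wide range among the P0 libraries. How much nasal cartilage came with the epithelium in each dissection was not tested. In WT, 18 of 22 fell, and WT P0 ran from 56.4 to 5639 CPM in Col2a1.

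Fibroblast and collagen genes followed at smaller size, with 8 of 22 falling and a median of -0.89. Without Kir P3 replicate 3 the count was 5, and without Kir P0 replicate 4 it was 5 with a median of -0.42. Fibronectin, Fn1, had 177, 190.3 and 212 CPM in Kir P3, against 1572, 918, 492 and 451 CPM in Kir P0 (-2.15 ± 0.43, edgeR adjusted p = 0.000589). Col6a1 (-1.28 ± 0.29), Col6a2 (-1.44 ± 0.33) and the growth factor receptor gene Pdgfra (-1.05 ± 0.25) fell too. The summed level of the list was 3511 to 4716 CPM in Kir P3 and 4805 to 13688 CPM in Kir P0. Of 16 endothelial genes tested, 8 fell and all 16 had a log2 fold change below 0, with a median of -0.81. Tie1, a receptor of blood vessel cells, had 10.1, 13.9 and 12.1 CPM in Kir P3, against 25.9, 21.6, 29.0 and 37.2 CPM in Kir P0 (-1.24 ± 0.28, edgeR adjusted p = 0.00227), and the tight junction gene Cldn5 13.8, 13.8 and 13.3 CPM, against 19.9, 22.5, 35.8 and 33.7 CPM. Neither overlapped. The endothelial count was 5 without Kir P3 replicate 3 and 3 without Kir P0 replicate 4. The haemoglobin genes Hba-a1 (-1.71 ± 0.53), Hba-a2 (-1.90 ± 0.59) and Hbb-bt (-1.39 ± 0.48), of which the first 2 are near-identical copies, were the called members of 11 erythroid genes. Hbb-bt was not called with Kir P3 replicate 3 or Kir P0 replicate 4 left out (edgeR adjusted p = 0.125 and 0.0903).

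Skeletal muscle and keratin genes were high in a single library. Of 13 muscle genes tested, 12 fell with a median of -5.13, but the summed level was 12.3 to 13.9 CPM in Kir P3 and 11.1 to 2722 CPM in Kir P0, with the maximum in Kir P0 replicate 4. Acta1, the actin of skeletal muscle, had 0.977, 0.205 and 0.536 CPM at P3, against 0.913, 3.07, 3.73 and 694 CPM at P0. Without that library 0 of the 11 muscle genes then tested were called, with a median of -0.25, and DESeq2 called 1 of 13, Ttn, with all libraries. Of 19 keratin and cornified epithelium genes tested, 13 fell with a median of -2.84, and without Kir P0 replicate 4 1 of 18 fell, Krt23, with a median of -0.31. Krt13, a keratin of moist stratified epithelia, had 0.266, 1.03 and 0.402 CPM at P3, against 0.274, 0.465, 0.366 and 4029 CPM at P0. Krt4, its partner, had 8.35, 9.04 and 11.4 CPM at P3, against 9.87, 8.18, 3.36 and 2984 CPM at P0, and the direction of both turned without that library. The keratin list also fell in WT, with 10 of 19 called lower and a median of -3.15. Its mean log2 CPM was 1.39 to 1.99 in WT P3 and 2.09 to 6.15 in WT P0. Of 17 bone genes, Mepe was called, at 0.0888, 0.103 and 0.0669 CPM against 0, 1.49, 1.46 and 3.90 CPM, and 0 of the bone genes were called without Kir P3 replicate 3 or without Kir P0 replicate 4.

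Wnt signalling genes fell in part. Of 30 tested, 12 fell, with a median of -0.42, beside the 9.94% of all genes that fell. WT had 7 of the 30 lower and 2 higher. Wnt11, a ligand, had 10.9, 10.6 and 13.2 CPM in Kir P3, against 27.1, 26.03, 34.4 and 59.2 CPM in Kir P0 (-1.66 ± 0.36, edgeR adjusted p = 0.00157), with no overlap. Among secreted inhibitors, Dkk3 (-0.75 ± 0.16) and Sfrp5 (-1.60 ± 0.38) fell, and among receptors Fzd7 (-0.48 ± 0.12). The count was 7 without Kir P3 replicate 3, with Sfrp4 then called higher, 6 without Kir P0 replicate 4 and 2 with the 7 Kir libraries alone. Of 19 Notch pathway genes, Notch4 (-0.67 ± 0.22) and Dll4 (-0.68 ± 0.23), both active in blood vessels, fell, a share near the 9.94% of all genes that fell. Dll4 was not called with Kir P3 replicate 3 or Kir P0 replicate 4 left out (edgeR adjusted p = 0.0778 and 0.0786). Of 24 axon guidance genes tested, 2 rose and 2 fell, shares near those over all genes. The repellent Sema3a (0.49 ± 0.12) and its coreceptor Plxna3 (0.59 ± 0.20) rose, while the receptor Ephb2 (-0.49 ± 0.12) and the repellent Slit2 (-0.43 ± 0.12) fell. Plxna3 was not called with Kir P3 replicate 3 or Kir P0 replicate 4 left out (edgeR adjusted p = 0.0693 and 0.165), and Slit2 was not called without Kir P3 replicate 3 (edgeR adjusted p = 0.0837). Sema3a averaged 80.0 ± 7.21 CPM at P3 and 57.2 ± 5.07 CPM at P0.

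In the lists of housekeeping genes the counts are set beside the 17.8% of all genes that were called. With edgeR, 0 of 28 oxidative phosphorylation genes, 0 of 30 ribosomal protein genes and 0 of 8 mitochondrial genome genes were called, and at an unadjusted p below 0.05 these counts were 5, 1 and 0. With DESeq2 they were 2 (Sdha and Ndufs1), 0 and 0. Of 18 cholesterol synthesis genes Lss, Srebf2 and Mvd fell by 0.40, 0.37 and 0.50 on the log2 scale. Of these 3, 1 was called without Kir P3 replicate 3, Srebf2, and 0 without Kir P0 replicate 4 (edgeR adjusted p = 0.0848, 0.143 and 0.202). Of 22 heat shock and unfolded protein genes the chaperone Hsph1 rose (0.49 ± 0.14), and Herpud1 (-0.65 ± 0.15) and Hspb1 (-1.13 ± 0.41) fell. Hspb1 was not called with Kir P3 replicate 3 or Kir P0 replicate 4 left out (edgeR adjusted p = 0.093 and 0.354). Of 21 fatty acid genes the glucocorticoid-responsive kinase Pdk4 (-1.81 ± 0.33) and the lipid carrier Fabp4 (-2.18 ± 0.71) fell, and Fabp4 was not called with either of these left out (edgeR adjusted p = 0.103 and 0.183).

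Genes called in both genotypes moved in the same direction, with 1 exception. In WT, 4077 genes were called (20.5%), 1715 higher (8.61%) and 2362 lower (11.9%). A rise of at least 2-fold was found in 441 of them (2.21%) and such a fall in 1110 (5.57%), and 6586 genes (33.1%) had an unadjusted p below 0.05. With limma on log2(TPM + 1) the WT split was 1795 higher and 1330 lower. Of the Kir calls, 2046 were also called in WT, which is 57.7% of the Kir calls and 50.2% of the WT calls. Among these 920 were higher and 1125 lower in both, and 1 was opposite. Pearson's r between the log2 fold changes in Kir and in WT was 0.63 across the 19927 genes, which are not independent of each other; the 2 comparisons share no library but share 1 model fit. The test of the difference itself called 1 gene (0.00502%), and 1137 genes (5.71%) had an unadjusted p below 0.05. DESeq2 called 6: Gm8276, Ctss, Xaf1, Sln, Synpr and Ddx3y. Sln averaged 6.29 ± 12.52 CPM in Kir P0 and Synpr 11.17 ± 20.99 CPM in WT P0 (SD, n = 4 each). In each case the SD exceeded the mean. Ddx3y was used above to tell the sex of the libraries, and 3 of 3 Kir P3 but 2 of 4 Kir P0 libraries were female. How far single libraries or sex account for the DESeq2 calls of Sln, Synpr and Ddx3y was not tested.

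**Figure D5:**
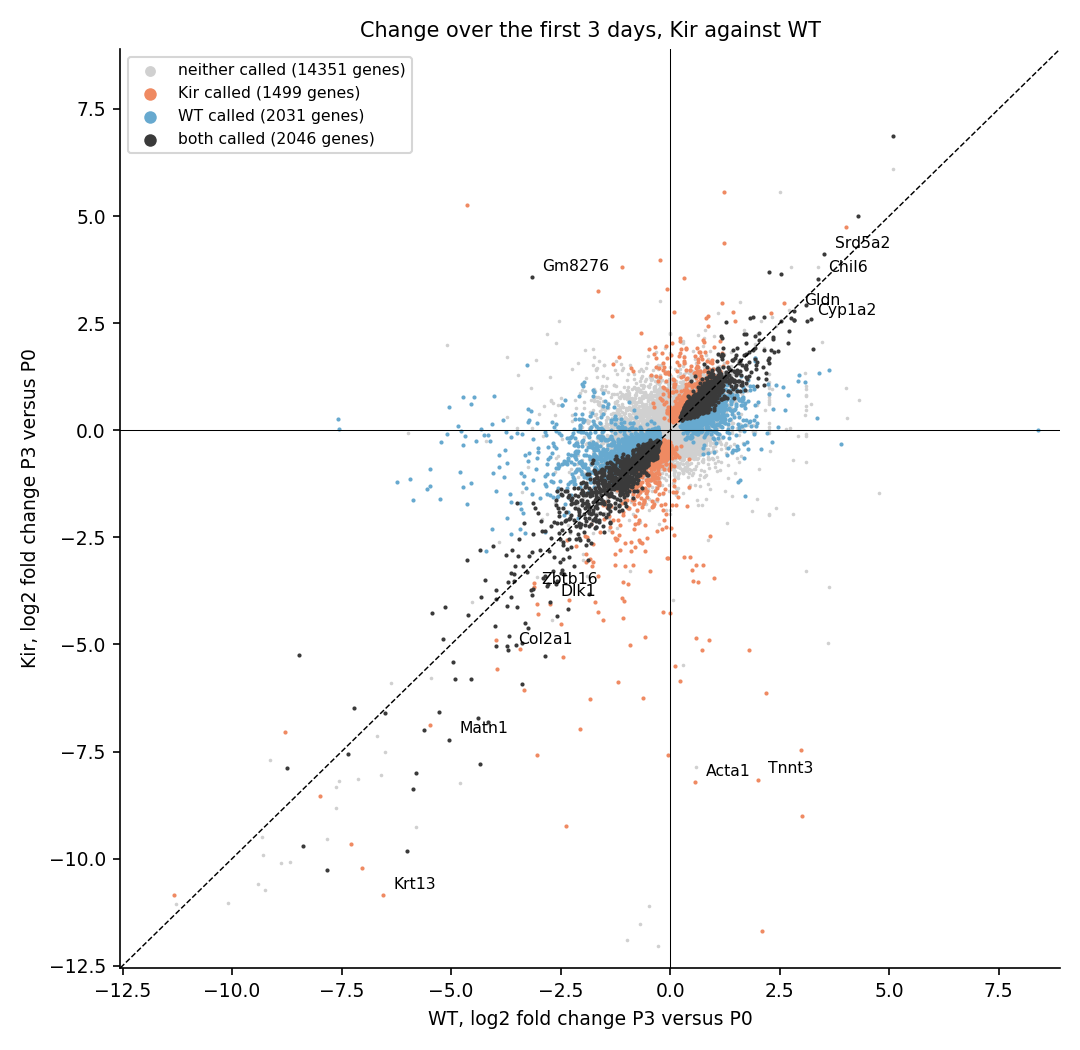
Log2 fold changes, P3 against P0, in WT (horizontal) and in Kir (vertical) for 19927 genes, coloured by where they were called; the dashed line marks equal change. Of the genes, 2046 were called in both, 1499 in Kir alone and 2031 in WT alone. All but 1 of the genes called in both moved in the same direction.

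The called gene was Gm8276 (ENSMUSG00000102550, chr3:59431537-59433348), annotated by GENCODE as a processed pseudogene, whose reads may be shared with similar sequences elsewhere. It is named here after its values were seen, because its level lay under the minimum set for such genes. It had 5.15, 5.86 and 3.15 CPM in Kir P3, against 0.457, 0.279, 0.366 and 0.443 CPM in Kir P0, and 0.288, 0.353 and 0.141 CPM in WT P3, against 0.163, 1.41, 0.940 and 6.69 CPM in WT P0. The log2 fold change was 3.58 ± 0.78 in Kir and -3.15 ± 0.91 in WT, a difference of 6.73 ± 1.20 (edgeR adjusted p = 0.0465). The Kir P3 libraries lay above all but 1 of the other 11 libraries, and that library, WT P0 replicate 4, held most of the WT P0 level. Rarg, the gene of a retinoic acid receptor and also named after its values were seen, had 50.4, 39.9 and 58.1 CPM in Kir P3, against 62.7, 82.1, 71.2 and 81.5 CPM in Kir P0 (-0.59 ± 0.13), and averaged 70.4 ± 5.68 CPM in WT P3 and 63.3 ± 11.7 CPM in WT P0. Its difference in change was not called (edgeR adjusted p = 0.328).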

How the data were processed

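RNA of dissected olfactory epithelium was sequenced in 47 libraries. Reads were made with bcl2fastq 2.18, aligned with STAR 2.6.1c to mm10 and quantified with RSEM, per the submitters' processing notes, which give no version for RSEM. The deposited count table holds the authors' raw read counts per gene. The deposited TPM table holds the authors' RSEM estimates, which are relative to transcript length and library size. The sources used here do not give the strand setting, so reads of overlapping or antisense genes cannot be told apart. Nor do they explain the prefixes of the library titles.

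Groups were taken from titles and strain labels. Genes were filtered with filterByExpr and counts scaled by TMM, and edgeR 4.0.16 (R 4.3.3) was fitted over all 47 libraries with a term for each genotype and age and a term for the title prefix. Kir P3 was set against Kir P0 with the quasi-likelihood F test, with Benjamini-Hochberg adjustment over 19927 genes, and genes were called at an adjusted p below 0.05. The standard error is the log2 fold change divided by the square root of F. The change in WT and the difference between both changes were tested in the same model. CPM are TMM-scaled.

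Alternatives were DESeq2 1.42.0, limma 3.58.1 on log2(TPM + 1) and log2(TPM + 0.1), other scaling and filters, no prefix term, smaller sets of libraries, a replicate block, each replicate left out, and WT P0 replicate 3 placed in WT P3. A sex term, the female Kir P0 libraries alone, and Kir P3 replicates 1 and 2 against Kir P0 replicates 1 to 3 were added after the data were seen. Named genes were the 12 largest rises and 12 largest falls among called genes with a mean of at least 5 CPM in either group and no overlap between groups, and at most 4 called genes per list with the smallest adjusted p (the 2 with the smallest p where fewer were called); others are stated as chosen after their values were seen. The comparison and the 46 gene lists were chosen with earlier results of these data known. Fixed tissue markers were named without regard to their change. Some genes of the lists are not reported here. Of 54532 genes in the table, 54409 have an entry in GENCODE M21, which gave the coordinates on GRCm38.

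On simulated counts of 19646 genes for Kir P3 against Kir P0, with 100 genes changed 2-fold and 100 changed 4-fold, edgeR recovered 69 and 89 of them, and 14 of its 172 calls were false. The counts were drawn independently for each gene around group means. They held no library that stood apart and no shift shared between genes, so these rates do not carry over to the calls above.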

Additional observations from a re-analysis of the deposited data

Results flagged for a closer look

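In 16 of 81 values tested, a single Kir P0 library lay apart from the other 3 by Dixon's criterion for groups of this size. Chance alone would meet the criterion about 1 time in 20 for a single unselected value. Many of the genes were chosen by the size of their change and the values are not independent, so that rate does not hold here. Of the 16 values, 13 were in Kir P0 replicate 4. Its mean log2 CPM was 6.99 for muscle genes, 7.54 for keratin and cornified epithelium genes and 7.24 for horizontal basal cell genes. It held 163 CPM of Tnnt3, 45.7 CPM of 2610528A11Rik, 149 CPM of Slpi, 104 CPM of Des, 441 CPM of Krt1, 75.04 CPM of Tgm3 and 91.6 CPM of Arg1, above the other Kir P0 libraries. It held 0.177 CPM of Srd5a2, 9.57 CPM of Chil6 and 45.4 CPM of Vmo1, below them. Kir P0 replicate 1 was high in cell cycle genes, with a mean log2 CPM of 5.55, and in Oas1g, with 2.47 CPM. Kir P0 replicate 2 was low in macrophage genes, with a mean log2 CPM of 3.39.

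The change of Gm8276 differed between Kir and WT by 6.73 on the log2 scale (edgeR adjusted p = 0.0465), with a rise in Kir and a fall in WT. Among the WT P0 libraries, replicate 4 held most of its counts.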

How the results depend on the processing

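Of 3110 values of 149 named called genes under other settings, 2605 kept direction and call, 500 lost the call and 5 reversed: Krt13 at 0.56 without Kir P0 replicate 4 and 0.77 with Kir P3 replicates 1 and 2 against Kir P0 replicates 1 to 3, and Krt4 at 0.44, 0.29 and, with a replicate block, 0.47. When replicates were left out, Krt13 ranged from -11.49 to 0.56 and Krt4 from -6.69 to 0.44. Beside 3545 called genes in Kir, there were 2181 and 2140 with limma on log2(TPM + 1) and log2(TPM + 0.1), 1197 with the cry4 libraries at P0 and P3 alone, 814 with the 7 Kir libraries alone and 1321 with Kir P3 replicates 1 and 2 against Kir P0 replicates 1 to 3. Leaving out each replicate gave 2001 (without Kir P0 replicate 4) to 4100 (without Kir P0 replicate 1), with 2129 without Kir P3 replicate 2. Upper-quartile scaling gave 1895 higher and 1715 lower. In WT, beside 4077, there were 1755 with the cry4 libraries alone, 919 with WT P0 replicate 3 placed in WT P3, and 2076 to 4288 with a replicate left out. The difference between Kir and WT, 1 gene, gave 6 with DESeq2, 42 against the female Kir P0 libraries alone, 11 with no filter, 0 with upper-quartile scaling, log2(TPM + 0.1), the cry4 libraries alone or Kir P3 replicates 1 and 2 against Kir P0 replicates 1 to 3, and 0 to 10 with a replicate left out. The causes of these changes were not tested.

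With the replicate number as a block, over Kir libraries of P0, P3, P14 and P21, 1045 genes were called, and 1708 without the block. Same-numbered P3 and P0 libraries had deviations correlated at -0.09, -0.13 and 0.31, and 2 of the 3 P3 libraries correlated best with another number. The largest of these Kir correlations, 0.31, was of a same-numbered pair. With so few libraries such weak values cannot decide whether the numbers pair the libraries, and the main test used no pairing.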

Other observations

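Glial genes moved both ways in Kir. Of 18 astrocyte, ensheathing glia and Schwann cell genes tested, 3 rose and 4 fell, against 2 and 2 without Kir P3 replicate 3 and 2 and 3 without Kir P0 replicate 4. Over all genes, 7.85% rose and 9.94% fell with all 7 libraries. WT had 1 of the 18 higher and 9 lower. Erbb3, the neuregulin receptor of Schwann cells, had 166, 179.6 and 165 CPM in Kir P3, against 265, 304, 285 and 283 CPM in Kir P0 (-0.74 ± 0.11, edgeR adjusted p = 1.43e-05), with no overlap. Slc1a2, a glutamate transporter of astrocytes, had 18.8, 16.8 and 27.4 CPM in Kir P3, against 7.67, 8.18, 5.85 and 3.37 CPM in Kir P0 (1.76 ± 0.43, edgeR adjusted p = 0.00434). In WT it was not called, and WT P0 replicate 1, the highest of the 14 libraries in the mean log2 CPM of brain neuron genes (5.80), held 77.8 CPM of it. Gldn, above, and Fabp7 rose, and Frzb, Foxd3 and S100b fell.

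Of 16 genes of respiratory ciliated cells, 2 that act in building new cilia rose, Deup1 (1.17 ± 0.33) and Mcidas (0.89 ± 0.28). The axonemal genes Cfap43 (-0.76 ± 0.21) and Hydin (-0.90 ± 0.28) fell. These counts stand beside the 7.85% of all genes that rose and the 9.94% that fell. Deup1 had 30.8, 39.7 and 38.4 CPM in Kir P3, against 20.6, 12.1, 15.3 and 16.4 CPM in Kir P0. Without Kir P3 replicate 3, 1 of the 16 was called higher and 0 lower by edgeR, and without Kir P0 replicate 4 the counts were 2 and 1. Of 14 neutrophil and defense genes Lcn2, Reg3g, Retnlg and Chil3 fell. Chil3 was not called with Kir P3 replicate 3 or Kir P0 replicate 4 left out (edgeR adjusted p = 0.134 and 0.0533), Retnlg not without Kir P3 replicate 3 (0.0787) and Reg3g not without Kir P0 replicate 4 (0.053). The vesicular glutamate transporter gene Slc17a6 (0.73 ± 0.19) was the called member of 20 synaptic vesicle genes, and was not called without Kir P3 replicate 3 (edgeR adjusted p = 0.133). Of 10 vomeronasal neuron genes 0 were called with edgeR and 0 with DESeq2, and 0 had an unadjusted p below 0.05.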
